A study of Rattus norvegicus with 6 samples.

Results

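The genes of aldosterone-sensitive sodium and potassium handling were examined in renal cortex, as 10 genes: Scnn1a, Scnn1b, Scnn1g, Nr3c2, Hsd11b2, Sgk1, Kcnj1, Elf5, Nedd4l and Avpr2. They were found on the array through the RefSeq transcript that each probe is designed against, and 9 of the 10 matched, among 31582 genes or sequences tested. No probe matched Nedd4l by transcript, and it has no value here. The tissue was kidney cortex from males of the Sprague-Dawley strain, purchased when 5 weeks old. BBMP (2,2-bis(bromomethyl)-1,3-propanediol, a brominated diol) was given at 1000 mg/kg/day for 4 weeks to 3 rats, and corn oil, the vehicle, for 4 weeks to the other 3, which are the controls. Each rat contributed 1 one-colour Agilent array of total RNA, and the design text calls the animals of a group biological replicates.

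Aldosterone acts in the last segments of the distal nephron, mainly in principal cells. It binds the mineralocorticoid receptor, encoded by Nr3c2, which then enters the nucleus and raises transcription of genes such as Sgk1, while the enzyme encoded by Hsd11b2 inactivates corticosterone, the main rat glucocorticoid, so that it does not occupy the receptor. The SGK1 kinase restrains the ubiquitin ligase encoded by Nedd4l, which otherwise removes the epithelial sodium channel, ENaC, from the apical membrane. ENaC is built from subunits encoded by Scnn1a, Scnn1b and Scnn1g, sodium enters through it, and potassium leaves through the channel ROMK, encoded by Kcnj1. Avpr2 encodes the vasopressin receptor of the same cells, and Elf5 a transcription factor of principal cells.

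A level is the processed signal of a probe divided by the 75th percentile of its array, so a level of 1 equals that percentile. Differences are on the log2 scale, BBMP minus control, with the standard error (SE) from limma. A gene is called higher or lower where its Benjamini-Hochberg adjusted p over all 31582 genes or sequences was under 0.05. Levels were not compared between genes, since probes differ in how strongly they hybridise.

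Of the 9 genes, 0 were called higher, 2 were called lower and 7 were not called, on the brightest probe of each. Over all genes or sequences tested, 10.2% were called higher, 7.68% lower and 17.9% in either direction. At an unadjusted p under 0.05, 3 of the 9 were lower and 0 higher, while 36.6% of all genes or sequences were under it in either direction. Hsd11b2 was 1.40-fold lower and Elf5 1.43-fold lower in BBMP cortex. The groups did not overlap for 3 of the 9 genes, Hsd11b2, Elf5 and Nr3c2, all lower in BBMP animals, against 18.6% of all genes or sequences that were lower without overlap and 43.6% without overlap in either direction. The median difference of the 9 genes was -0.12, against 0.05 over all genes or sequences. In bulk cortex, fewer cells of a type and less RNA per cell cannot be told apart.

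**Figure D1:**
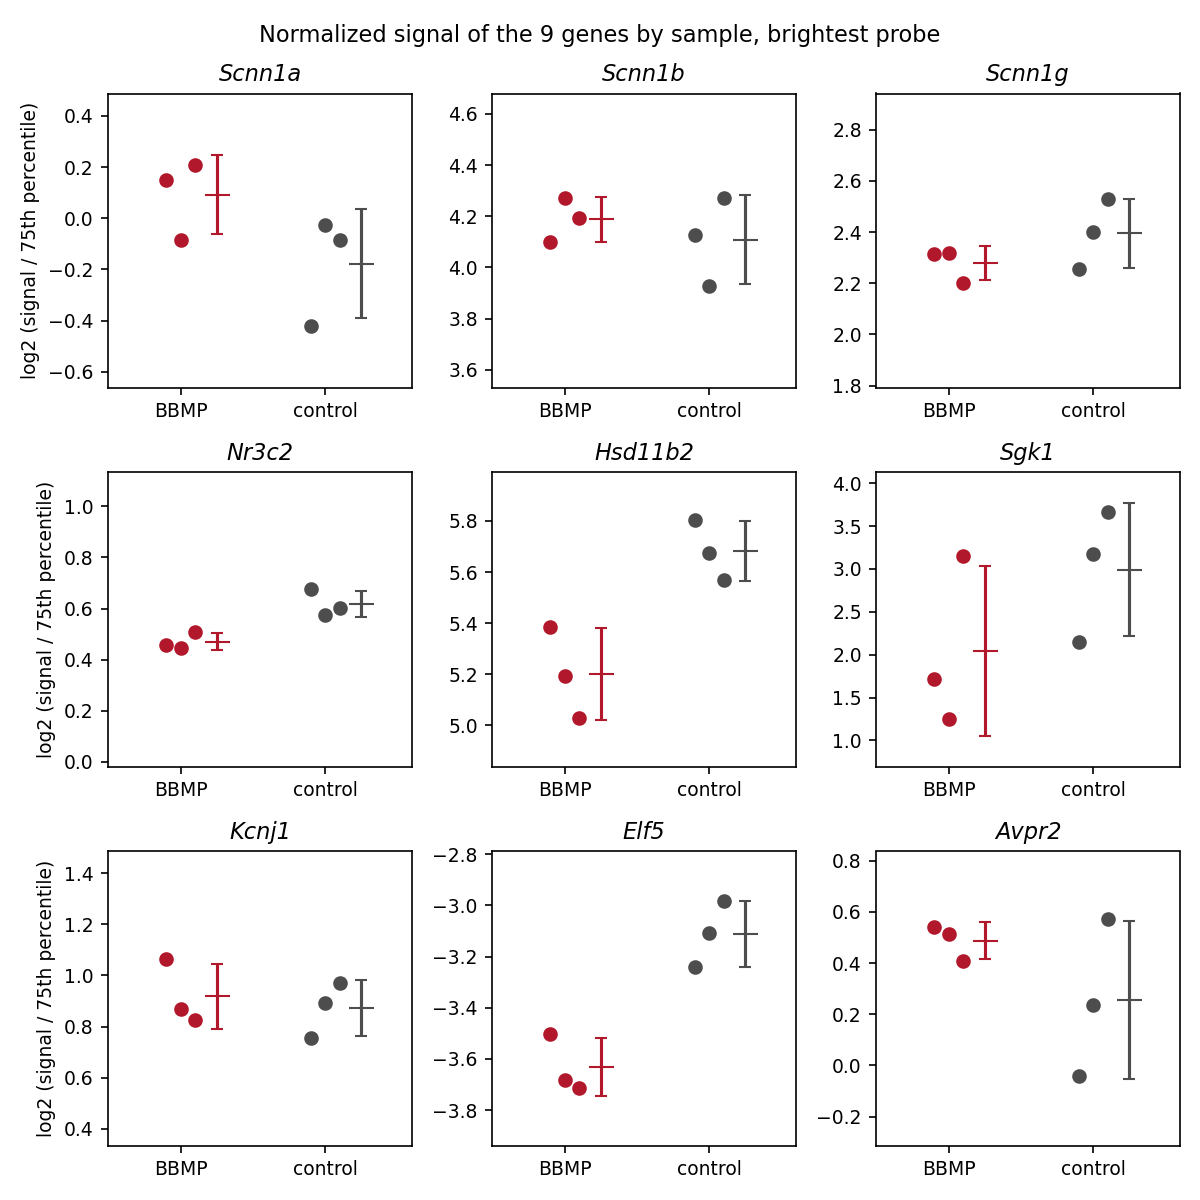
Normalized signal of the brightest probe of each of the 9 genes, as log2 of the signal over the 75th percentile of the array; points are animals, and the bar beside them is the mean with its SD (n = 3 per group). The vertical axes differ between panels. The groups are apart for Hsd11b2, Elf5 and Nr3c2 and overlap for the other 6 genes.

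The BBMP arrays shared slide 2 and scan 2, and the control arrays shared slide 1 and scan 1. An effect of the compound therefore cannot be told apart from one of slide or scan in any value below. The slide row differed within the controls: controls 1 and 2 were in row 2, and control 3 and the 3 BBMP arrays in row 1. The share of probes well above background was 70.5% to 72.7% in BBMP animals, against 67.2% to 68.6% in controls. The 75th percentile that scales each array was 1244 to 1259 on the BBMP arrays and 942.7 to 949.7 on the control arrays, a ratio of 1.32 or 0.40 on the log2 scale. None of the probes of these genes was saturated on any array, a count of 0.

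Hsd11b2, which keeps corticosterone away from the mineralocorticoid receptor, had levels of 41.8, 36.6 and 32.6 in BBMP animals, against 55.9, 51.1 and 47.5 in controls. Every BBMP animal was below every control. Its mean level was 37.0 ± 4.60 in BBMP and 51.5 ± 4.21 in control cortex (SD, n = 3 each). On the log2 scale Hsd11b2 differed by -0.48 ± 0.11 (SE), with a 95% interval of -0.76 to -0.20 and a limma adjusted p of 0.0401. Leaving out any single array moved the adjusted p to between 0.0573 and 0.108, so the call needed all 6 arrays. Within slide row 1, which leaves 3 BBMP animals and 1 control whose spread is assumed to be like that of the others, the difference was -0.37, with an adjusted p of 0.291. Before scaling, its processed signal was 41086 to 52032 on BBMP arrays and 44797 to 53099 on control arrays, which overlap, and the unscaled log2 difference was -0.08.

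Elf5 had levels of 0.0883, 0.0779 and 0.0763 in BBMP animals, against 0.106, 0.116 and 0.126 in controls. The groups did not overlap, although the signal was dim in both. The log2 difference was -0.52 ± 0.10 (SE), with a 95% interval of -0.76 to -0.28 and a limma adjusted p of 0.0232. The 1000 probes nearest to it in brightness had a median difference of 0.11, in the other direction. The call was kept without control 1 and without control 3, and was lost without any of the other 4 arrays, with an adjusted p of up to 0.0767, and the difference within slide row 1 was -0.65 with an adjusted p of 0.133. Its other 2 probes failed the background criterion on all 6 arrays and were not tested, and the unscaled signal of the tested probe overlapped between groups, at 96.1 to 110.0 in BBMP and 100.5 to 119.2 in control animals.

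Hsd11b2 and Elf5 both mark principal cells, and other markers of these cells were read beside them. Of 11 tested genes in a list of principal cell and connecting tubule markers, 0 were called higher and 2 lower, Aqp4 and Trpv5. The summed level of the list ranged from 278 to 310 in BBMP animals and from 300 to 333 in controls, which overlap. Pcbd1, Aqp2 and Tfcp2l1 made up most of this sum, at levels of 104, 71.8 and 42.5 in BBMP animal 1. The called genes Aqp4 and Trpv5 read 0.432 and 0.155 in that animal and hardly entered it. Of the 11 genes 8 had a difference below 0, and the median was -0.11. With the mean of all probes the median was 0.07, and 1 gene was called lower. Leaving out 1 array left 2 called lower without control 1, 1 without control 3, and 0 without control 2 or any BBMP animal. The second probe of Tfcp2l1 was called higher, at 0.36, and that of Trpv5 gave 0.21, which did not pass. Calb1, the calbindin gene of the connecting tubule, had levels of 4.92, 3.68 and 4.20 in BBMP animals, against 5.39, 6.42 and 8.34 in controls, without overlap, and a log2 difference of -0.64 ± 0.19 (SE) that did not pass (limma adjusted p = 0.0672). Aqp2, the vasopressin-regulated water channel and a defining marker, had levels of 71.8, 86.7 and 96.1 in BBMP animals, against 81.5, 80.0 and 89.8 in controls. The groups overlapped for Aqp2, with a log2 difference of 0.01 ± 0.12 (SE). The part of the number of principal cells in the lower Hsd11b2 and Elf5 was not tested beyond these values.

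Nr3c2, the mineralocorticoid receptor gene, had levels of 1.37, 1.36 and 1.42 in BBMP animals on its brightest probe, against 1.6, 1.49 and 1.52 in controls. The groups did not overlap, but the gap was small, and the gene did not pass the threshold. The log2 difference was -0.15 ± 0.06 (SE), with an unadjusted p of 0.047 and a limma adjusted p of 0.132. Before scaling, the processed signal of this probe was higher in BBMP animals, at 1697 to 1790, against 1413 to 1516 in controls. The unscaled log2 difference was 0.25, so the lower level appeared only after scaling. After scaling, the other probes of Nr3c2 pointed away from the brightest one. The second probe read 0.0307, 0.0325 and 0.0392 in BBMP animals, against 0.0257, 0.0198 and 0.0278 in controls, with a log2 difference of 0.49 ± 0.16 (SE). The third read 0.0409, 0.0319 and 0.0342 in BBMP animals, against 0.0145, 0.0243 and 0.0253 in controls, with a log2 difference of 0.77 ± 0.24 (SE). Neither passed over all probes, at limma adjusted p of 0.0822 and 0.0719. Both were dim, each was not well above background on 1 control array, and the 1000 probes of like brightness had median differences of 0.19 and 0.21. Averaging all 3 probes turned the direction to 0.37, with an adjusted p of 0.0463, and after normexp background correction both dim probes were below 0, at -0.21 and -0.06, neither called, like the brightest probe at -0.13. The direction of the dim probes therefore differed between the reported setting and the normexp setting. The normexp setting also took the median signal in place of the processed signal and added an offset. Which of these changes turned the direction was not tested.

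**Figure D2:**
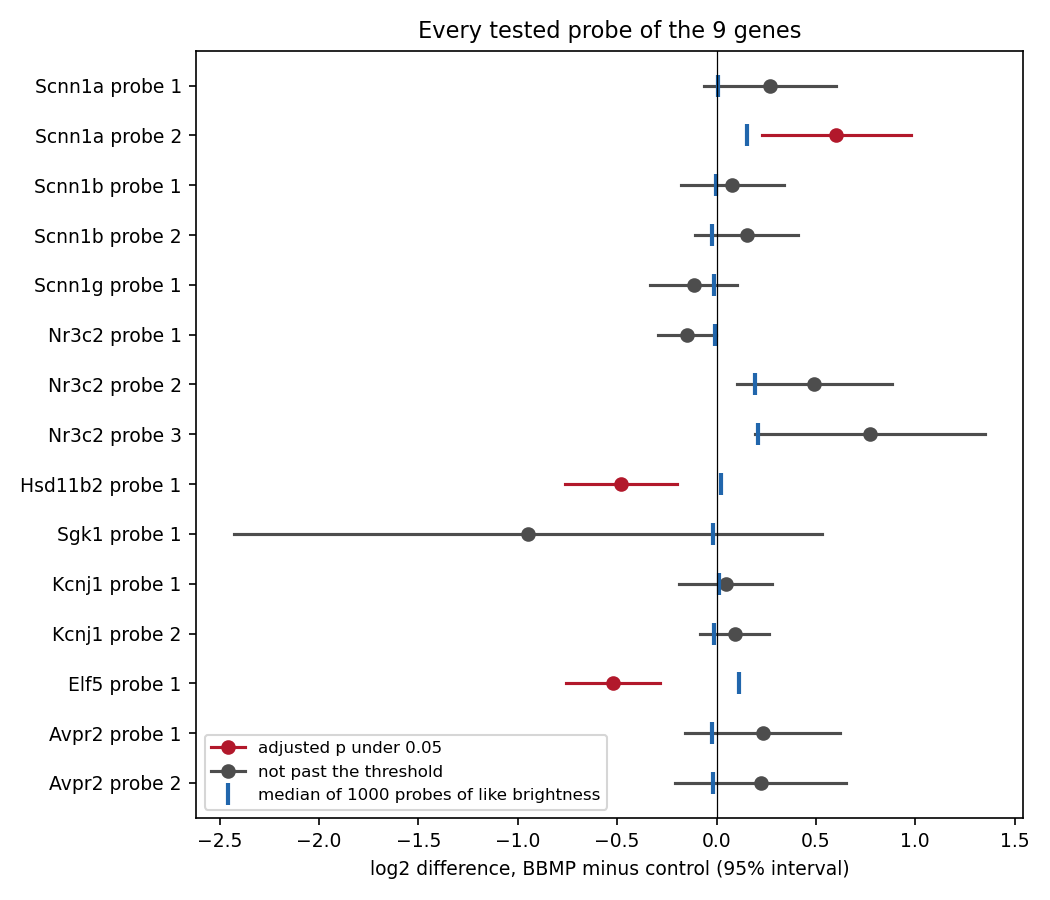
The log2 difference of every tested probe of the 9 genes (BBMP minus control), with its 95% interval; red marks an adjusted p under 0.05 over all probes, and the blue tick is the median of the 1000 probes nearest in brightness. The probe of Hsd11b2 and the tested probe of Elf5 lie below 0 and the dimmer probe of Scnn1a above it, while the 3 probes of Nr3c2 lie on both sides.

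Sgk1, the aldosterone-induced kinase, had levels of 3.30, 2.38 and 8.90 in BBMP animals, against 4.42, 9.0 and 12.7 in controls. BBMP animal 3 was close to control 2, and control 1 was close to the 2 low BBMP animals. The log2 SD was 0.99 in BBMP and 0.77 in control animals. The log2 difference was -0.95 ± 0.60 (SE), and its 95% interval from -2.44 to 0.54 holds both large decreases and modest increases (limma adjusted p = 0.303). Single arrays moved this value: it was -0.55 without BBMP animal 2, -0.61 without control 3 and -1.51 without BBMP animal 3, with none past the threshold. The slide row fits gave -1.62, a shared estimate that rests on control 3 alone against the BBMP animals. Sgk1 also answers to glucocorticoids, and its level moves with the time of day.

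The genes with levels most like those of Sgk1 were sought among 14 other genes that aldosterone or glucocorticoids induce. Tsc22d3, which encodes the glucocorticoid-induced leucine zipper protein, had levels of 2.42, 2.22 and 4.58 in BBMP animals, against 4.97, 5.77 and 5.48 in controls. As for Sgk1, BBMP animal 3 was the highest of its group. Tsc22d3 had a log2 difference of -0.89 ± 0.28 (SE), did not overlap between groups and did not pass (limma adjusted p = 0.0792), and its other tested probe gave -0.30. Per1, a clock gene that corticosteroids also induce, had levels of 0.138, 0.0813 and 0.370 in BBMP animals, against 0.110, 0.230 and 0.317 in controls, which overlap. Over the 6 animals, Sgk1 correlated with Per1 at a Pearson r of 0.92 (exact permutation p = 0.025) and a Spearman rho of 0.77 (exact permutation p = 0.103), and with Tsc22d3 at r = 0.87 (exact permutation p = 0.0181) and rho = 0.89 (exact permutation p = 0.0333). Over the 14 relations, the lowest adjusted p was 0.175 for r and 0.467 for rho, so none passed. Without the 2 animals farthest from the median of Sgk1, r was 0.85 for Per1 and 0.76 for Tsc22d3, and it was 0.90 for Klf9, a transcription factor gene, and 0.86 for Fkbp5, whose r over all 6 animals was 0.77 (exact permutation p = 0.0792) and 0.46 (exact permutation p = 0.386). The permutations moved animals across the groups, so r, rho and their p mix differences between the groups with those within them. A slide holds too few animals for a value within it, and these genes were picked from the 14 after their values were seen. Fkbp5, a chaperone gene that corticosteroids also induce, read 3.36, 2.73 and 6.31 in BBMP animals, against 2.79, 12.5 and 2.76 in controls, with control 2 far above the rest.

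**Figure D3:**
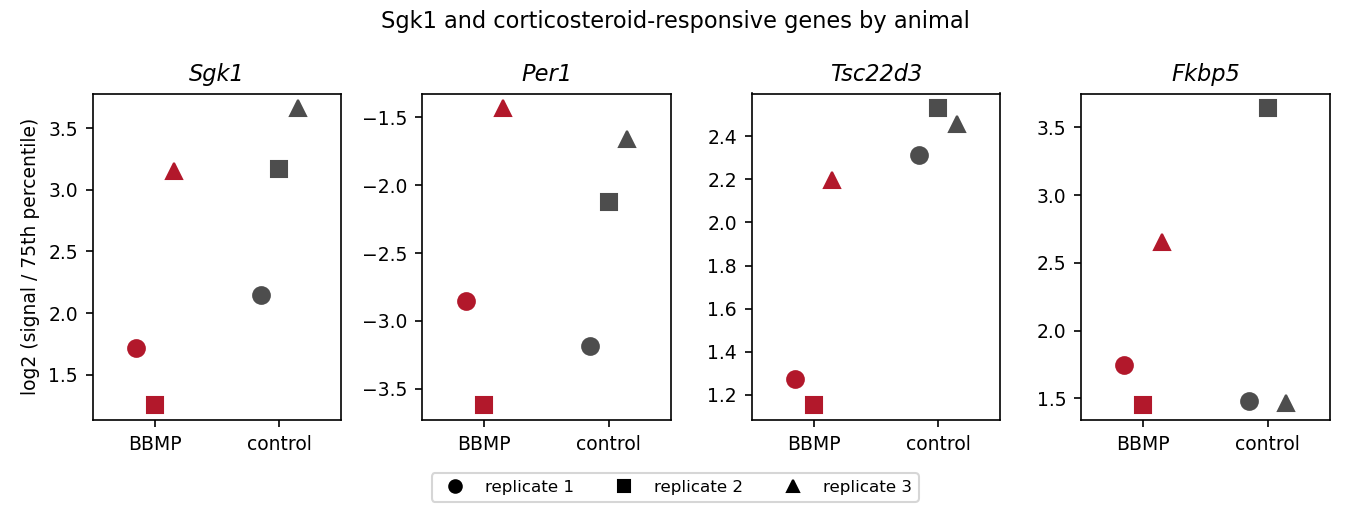
Levels of Sgk1, Per1, Tsc22d3 and Fkbp5 in each animal, as log2 of the signal over the 75th percentile of the array. Marker shapes are replicate numbers within a group and are not read as pairs across groups. BBMP animal 3 is the highest of its group in all 4 genes, and control 2 stands apart for Fkbp5 at a level of 12.5.

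None of the 3 ENaC genes was called on its brightest probe. Scnn1b and Scnn1g are next to each other on chromosome 1, with 0 annotated genes between them, and their proximal promoters are shown because both genes encode subunits of one channel. Each runs from 250 bases before to 50 bases after the annotated start of the gene, 5′ to 3′, from RefSeq on assembly GRCr8. The Scnn1b promoter is chr1:185861126-185861425 (plus strand) and that of Scnn1g chr1:185735975-185736274 (plus strand).
Scnn1b: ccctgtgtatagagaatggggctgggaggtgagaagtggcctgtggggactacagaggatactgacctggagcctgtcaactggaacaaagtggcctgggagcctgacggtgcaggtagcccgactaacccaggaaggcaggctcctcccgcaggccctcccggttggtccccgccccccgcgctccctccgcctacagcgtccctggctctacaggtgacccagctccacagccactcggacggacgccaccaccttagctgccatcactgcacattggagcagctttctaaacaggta
Scnn1g: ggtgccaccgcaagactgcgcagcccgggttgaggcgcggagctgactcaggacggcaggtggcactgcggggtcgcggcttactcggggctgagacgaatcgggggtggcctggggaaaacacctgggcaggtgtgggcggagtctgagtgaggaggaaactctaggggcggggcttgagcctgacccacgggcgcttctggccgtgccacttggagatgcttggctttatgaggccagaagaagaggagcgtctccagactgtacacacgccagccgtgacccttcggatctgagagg
Neither window holds the 6-letter core of the corticosteroid receptor element, AGAACA, or TGTTCT on the other strand, which 20.7% of 33469 rat promoters of the same length hold. The absence of these letters here bears only on this window.

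Scnn1a, the subunit gene that aldosterone raises in kidney, had levels of 1.11, 0.944 and 1.16 in BBMP animals on its brighter probe, against 0.747, 0.981 and 0.943 in controls. BBMP animal 2 lay within the control range. The log2 difference was 0.27 ± 0.14 (SE), with a 95% interval of -0.07 to 0.60 and a limma adjusted p of 0.210, and after normexp it was 0.08. The dimmer probe had levels of 0.0980, 0.0869 and 0.0916 in BBMP animals, against 0.0491, 0.0621 and 0.0729 in controls, without overlap. On this probe Scnn1a was called higher, by 1.52-fold, with a log2 difference of 0.60 ± 0.15 (SE) and a limma adjusted p of 0.046 over 42657 probes, of which 10.3% were called higher and 17.8% in either direction. Of the 15 tested probes of the 9 genes, 1 was called higher and 2 lower, those of Hsd11b2 and Elf5. Probes of like brightness had a median difference of 0.16. After normexp background correction the difference was 0.14 and was not called, and within slide row 1 it was 0.34 with an adjusted p of 0.208.

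Scnn1b had levels of 17.1, 19.3 and 18.3 in BBMP animals, against 17.5, 15.2 and 19.3 in controls. The groups overlapped on this probe, with a log2 difference of 0.08 ± 0.11 (SE) and a 95% interval of -0.18 to 0.34. The second Scnn1b probe gave 0.15 ± 0.10 (SE). Scnn1g, with a single probe, had levels of 4.98, 4.99 and 4.60 in BBMP animals, against 4.77, 5.28 and 5.77 in controls. These overlapped as well, with a log2 difference of -0.12 ± 0.09 (SE), a 95% interval of -0.33 to 0.10 and a limma adjusted p of 0.390.

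The balance of the subunits was then set out within each array, as the mean log2 level of Scnn1b and Scnn1g minus that of Scnn1a. With the brighter Scnn1a probe it was 3.06, 3.38 and 2.99 in BBMP animals, against 3.61, 3.19 and 3.48 in controls, which overlap. The difference was -0.29 (two-sided exact permutation test, p = 0.2), and after normexp it was -0.03 (exact permutation p = 1). With the dimmer probe it was 6.56, 6.82 and 6.65 in BBMP animals, against 7.54, 7.17 and 7.18 in controls. Here every BBMP animal was below every control, by -0.62 on average, and the exact permutation p of 0.1 is the smallest that 3 against 3 allows. Scaling of an array cancels in this value, but the background of a dim probe does not.

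Kcnj1, the ROMK potassium channel gene, has 2 annotated starts, and 3 of the 9 promoters of these genes in the RefSeq table hold this hexamer: both Kcnj1 promoters and that of Avpr2. The other 6 promoters belong to Scnn1b, Scnn1g, Nedd4l and the 3 starts of Sgk1, and the table used here has no entry for Scnn1a, Nr3c2, Hsd11b2 or Elf5. The second Kcnj1 promoter, chr8:39061391-39061690 (plus strand), holds 2 hexamers, where 2.99% of all promoters hold 2 or more, and the Avpr2 promoter, chrX:156784889-156785188 (plus strand), holds 1 on the other strand. Both are shown with the hexamers in capitals, which start 201 and 23 bases before the start in Kcnj1 and 59 bases before it in Avpr2.
Kcnj1: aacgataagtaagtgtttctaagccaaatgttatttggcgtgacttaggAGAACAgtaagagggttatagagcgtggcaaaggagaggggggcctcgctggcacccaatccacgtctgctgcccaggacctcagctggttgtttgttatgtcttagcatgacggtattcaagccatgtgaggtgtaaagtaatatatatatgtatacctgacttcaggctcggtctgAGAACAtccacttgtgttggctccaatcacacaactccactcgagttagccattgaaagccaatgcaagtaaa
Avpr2: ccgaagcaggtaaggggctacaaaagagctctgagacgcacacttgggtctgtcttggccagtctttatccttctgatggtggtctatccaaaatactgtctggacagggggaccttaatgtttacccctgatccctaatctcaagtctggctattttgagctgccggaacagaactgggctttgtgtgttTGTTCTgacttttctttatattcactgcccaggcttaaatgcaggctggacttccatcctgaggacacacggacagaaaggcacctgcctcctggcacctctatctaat
The full 15-letter element, AGAACA followed by any 3 bases and TGTTCT, was in 5 of the 33469 promoters and in 0 of these 9. A match is a description of letters and shows no binding.

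Kcnj1 had levels of 2.09, 1.83 and 1.77 in BBMP animals, against 1.69, 1.85 and 1.96 in controls. The groups were mixed in order, with a log2 difference of 0.05 ± 0.10 (SE) and a 95% interval of -0.19 to 0.28. Its second probe read 1.5, 1.36 and 1.32 in BBMP animals, against 1.29, 1.29 and 1.33 in controls, with a log2 difference of 0.09 ± 0.07 (SE). These intervals leave out a 1.5-fold change in either direction for Kcnj1, Scnn1b and Scnn1g, but they do not show that the groups were alike.

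Avpr2, the receptor through which vasopressin raises water permeability, had levels of 1.46, 1.43 and 1.33 in BBMP animals, against 0.972, 1.18 and 1.49 in controls. Control 3 was above all BBMP animals and control 1 well below them. The control SD was 0.31 on the log2 scale, against 0.07 in BBMP animals. The second Avpr2 probe repeated this order of animals, with levels of 1.36, 1.35 and 1.25 in BBMP animals, against 0.895, 1.12 and 1.45 in controls. Avpr2 differed by 0.23 ± 0.16 (SE, log2) on the brighter probe, with a limma adjusted p of 0.339, and 0.22 ± 0.18 on the other. Without control 1 the brighter probe gave 0.08 and without control 3 it gave 0.39, neither past the threshold. Both slide row fits set control 3 alone against the BBMP animals, so they share a single estimate. There the direction turned, to -0.09. For 5 of the 9 genes several probes were tested, and in 4 of these all probes had differences of 1 sign, against 65.3% of 6216 named genes with several tested probes.

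**Figure D4:**
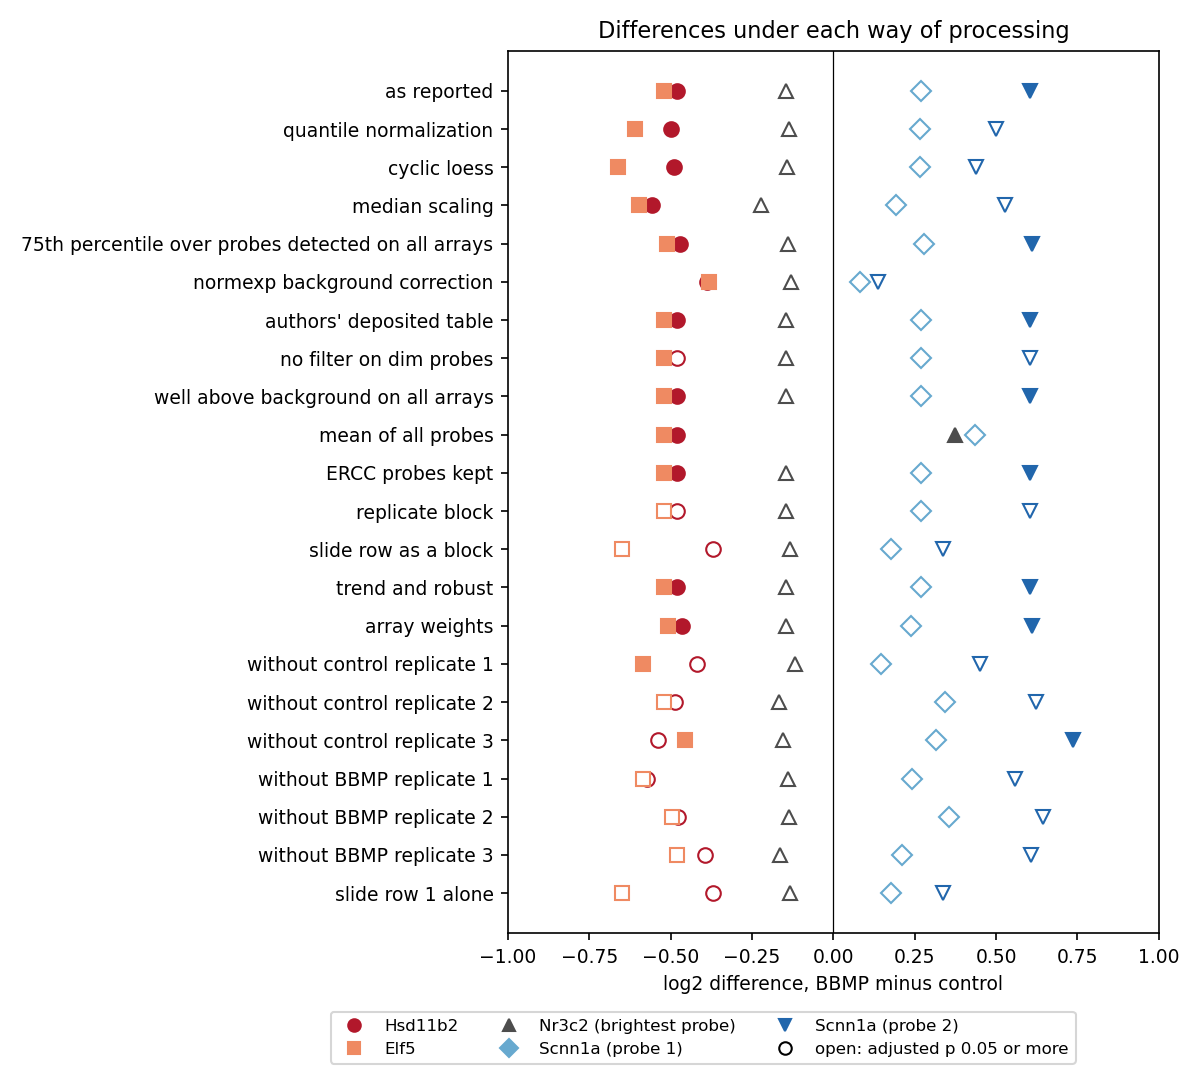
The log2 difference of Hsd11b2, Elf5, Nr3c2 and both Scnn1a probes (BBMP minus control) as reported and under each alternative way of processing; open symbols have an adjusted p of 0.05 or more. Hsd11b2 and Elf5 stay below 0 and both Scnn1a probes above 0 in every alternative drawn, and Nr3c2 is above 0 with the mean of all probes.

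The wider pathway was read from 7 lists of 95 genes in all, of which 87 were tested: 3 were called higher and 11 lower, which is 3.45% and 12.6%, against 10.2% and 7.68% of all genes or sequences, and their median difference was -0.03. The lists cover the receptor and its chaperones, aldosterone-induced genes, ENaC proteases, ENaC ubiquitination and trafficking, the SGK1 and WNK kinases, distal transporters and potassium channels, and vasopressin signalling. These calls were sensitive to single arrays: without BBMP animal 2, 0 pathway genes were called higher and 0 lower, and without BBMP animal 1, BBMP animal 3, control 1 or control 2 between 1 and 3 were called higher and between 4 and 6 lower. Within slide row 1, or with slide row as a block, 0 were called in either direction, with 15 and 18 at an unadjusted p under 0.05, against 25 over all arrays.

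Among 12 tested genes of the receptor, ligand access and chaperone list, 4 were called lower and 0 higher, with a median difference of -0.08. Of the 12 differences 6 were above 0 and 6 below. The mineralocorticoid receptor is held ready for its ligand by HSP90 and its co-chaperones. Hsp90aa1, the inducible HSP90 gene, had levels of 44.9, 46.9 and 47.2 in BBMP animals, against 57.7, 57.6 and 57.9 in controls, without overlap. It was lower by 1.25-fold (log2 difference -0.32 ± 0.05, SE; limma adjusted p = 0.0201), and its other 5 probes were lower too, 4 of them past the threshold. Ptges3, the HSP90 co-chaperone p23, had levels of 16.6, 16.3 and 17.0 in BBMP animals, against 23.5, 22.4 and 22.7 in controls. It was lower by 1.37-fold on its only probe, with no overlap (limma adjusted p = 0.0124). Hsp90ab1, the constitutive HSP90 gene, had a log2 difference of -0.26 ± 0.06 (SE), while 1 of its other 4 probes pointed the other way. Nr3c1, the glucocorticoid receptor gene, had levels of 1.99, 1.96 and 1.82 in BBMP animals, against 2.45, 2.39 and 2.53 in controls. The log2 difference was -0.36 ± 0.06 (SE; limma adjusted p = 0.0219), and the other probes of Nr3c1 gave -0.21 and 0.19, neither past the threshold. Averaging all probes ended the calls of Nr3c1 and Hsp90ab1, and the list then had 1 gene called higher and 2 lower, with a median of 0.07. H6pd was not called at 0.15 on its brightest probe, while its other 2 probes were called higher, at 0.52 and 0.61. Ell was not called at -0.21 on its brightest probe, while its other probe was called higher, at 0.42.

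Among 14 tested aldosterone-induced genes, 1 was called lower and 0 higher, with a median difference of -0.14. Among 11 genes of ENaC proteases and their inhibitors, 1 was called lower and 0 higher. It was St14, which encodes matriptase, with levels of 5.60, 5.66 and 5.54 in BBMP animals, against 6.96, 6.63 and 6.82 in controls. Its probes disagreed: the log2 difference was -0.28 ± 0.05 (SE) on the brighter probe, while the other probe was called higher at 0.27, and their mean was -0.01.

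Among 14 genes of ENaC ubiquitination and trafficking, 1 was called higher and 2 lower. Ywhaz, a 14-3-3 protein gene, had levels of 6.36, 6.77 and 6.89 in BBMP animals, against 9.78, 11 and 9.97 in controls. It was lower by 1.53-fold without overlap (limma adjusted p = 0.0119). Nedd4, a ubiquitin ligase gene related to Nedd4l, had levels of 7.97, 8.41 and 8.79 in BBMP animals, against 11.1, 11.5 and 11.1 in controls. The log2 difference of Nedd4 was -0.42 ± 0.06 (SE), its second probe gave 0.29, which did not pass, and the mean of both probes was -0.07 and not called. Ywhab, which encodes the 14-3-3 protein beta, was the gene called higher, at 0.27 ± 0.06 (SE), and its second probe gave 0.07, which did not pass. The call of Ywhab was lost with quantile normalization, with median scaling, with the mean of all probes and without the filter on dim probes. It was also lost when any 1 array was left out, with a limma adjusted p of 0.0711 to 0.108.

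**Figure D5:**
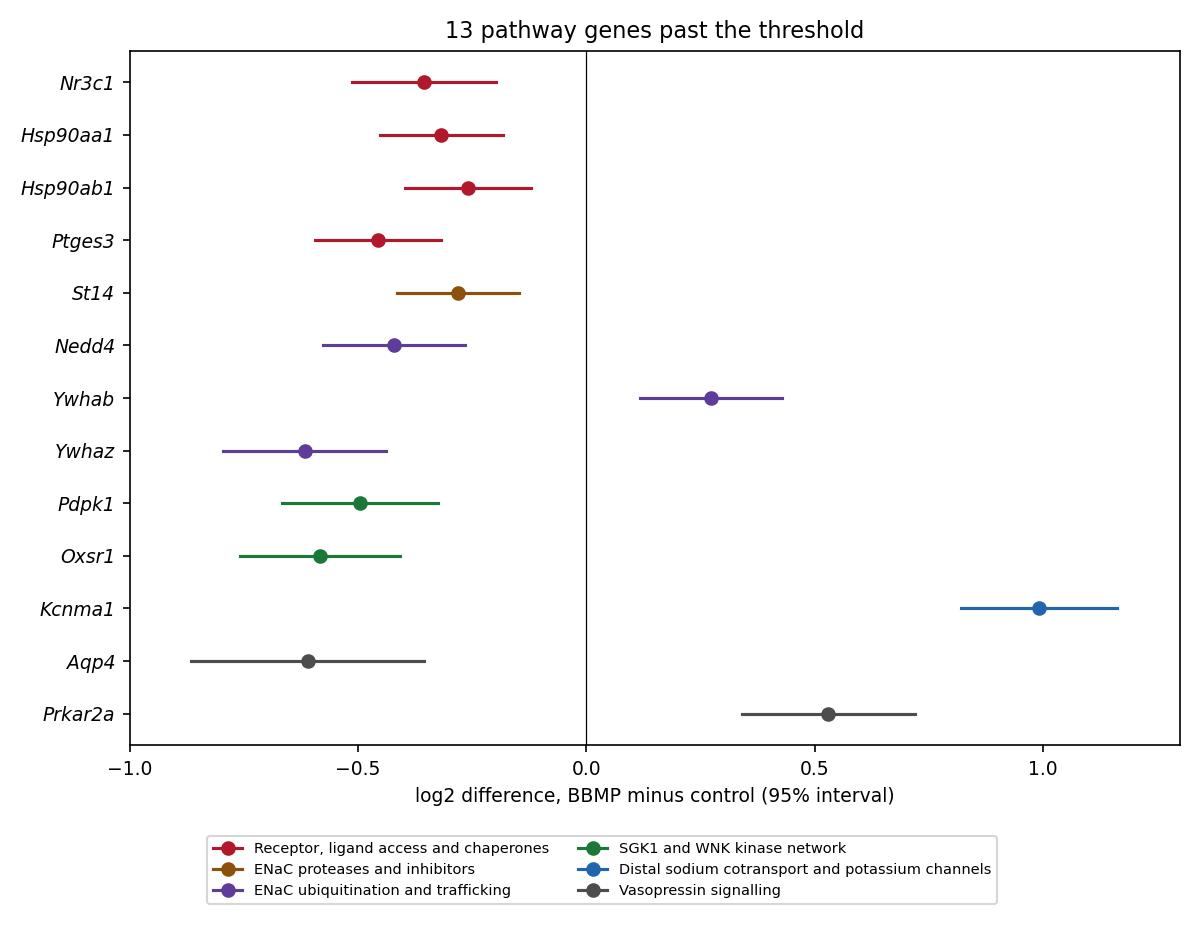
The log2 difference of 13 of the 14 called pathway genes, from 6 of the 7 lists (BBMP minus control), on the brightest probe of each gene, with 95% intervals; colours are the lists. Kcnma1, Prkar2a and Ywhab lie above 0 and the other 10 genes drawn below it.

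Among 10 genes of the SGK1 and WNK kinase network, 2 were called lower and 0 higher. Pdpk1, the kinase that activates SGK1, had levels of 1.85, 1.68 and 1.74 in BBMP animals, against 2.36, 2.60 and 2.46 in controls, without overlap, and a log2 difference of -0.50 ± 0.07 (SE; limma adjusted p = 0.0147). Oxsr1, a kinase that WNK kinases activate, had levels of 1.02, 1.04 and 1.11 in BBMP animals, against 1.51, 1.69 and 1.57 in controls. The log2 difference of Oxsr1 was -0.58 ± 0.07 (SE), but its other 2 probes gave 0.01 and 0.21, and the mean of all 3 was -0.12 and not called. Mlst8 was not called at -0.15 on its brightest probe, while its other probe was called higher, at 0.68. Wnk1 was not called at -0.08, while its other probes gave -0.21, -0.04 and 0.47, the last called higher. With the mean of all probes 1 gene of the list was called lower.

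Among 13 distal sodium cotransport and potassium channel genes, 1 was called higher and 0 lower, with a median difference of 0.00. The gene was Kcnma1, the BK potassium channel, with levels of 0.297, 0.319 and 0.336 in BBMP animals, against 0.158, 0.165 and 0.156 in controls. Every BBMP animal was well above every control, and the difference was 1.99-fold (log2 0.99 ± 0.07, SE; limma adjusted p = 0.0108), the largest among the 14 called pathway genes on the log2 scale. Its second probe gave 0.36, which did not pass, and normexp gave 0.65 on the first. Slc12a3, the thiazide-sensitive sodium chloride cotransporter gene, overlapped between groups, at 27.2, 24.4 and 23.8 in BBMP animals and 20.6, 28.0 and 22.4 in controls.

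Among 15 vasopressin signalling genes, 1 was called higher and 1 lower, with a median difference of 0.06. Aqp4, a basolateral water channel of principal cells, had levels of 0.432, 0.378 and 0.446 in BBMP animals, against 0.572, 0.657 and 0.688 in controls, without overlap. It was lower by 1.53-fold (limma adjusted p = 0.0197), and its other probes gave -1.0, which passed, and 0.22, which did not. Prkar2a, a regulatory subunit of protein kinase A, was called higher at 0.53 ± 0.08 (SE) on a dim probe, and after normexp its difference was 0.03 and was not called.

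Markers of other cells that a cortex sample can hold were set beside these results. The summed level of 13 intercalated cell markers was 170 to 184 in BBMP animals and 177 to 216 in controls. Of these genes 2 were called higher, Aqp6 and Slc4a9, and 0 lower, while 9 had a difference above 0 and 4 below. Atp6v1g3 was at -0.38 without overlap (limma adjusted p = 0.0835) and Foxi1 at -0.53 (limma adjusted p = 0.0864), neither past the threshold. Slc26a4 and Atp6v1g3 made up most of the sum, at levels of 51.5 and 64.5 in BBMP animal 1. Of 8 thick ascending limb markers, which matter for Kcnj1 because this limb also makes ROMK, 1 was called lower, Cldn10, and their sum was 588 to 715 in BBMP animals and 555 to 769 in controls. Of 12 proximal tubule markers limma called 0, with 3 at an unadjusted p under 0.05 and sums of 2715 to 2841 in BBMP animals and 2754 to 2978 in controls. The sums of 2 distal convoluted tubule genes, 7 podocyte genes and 10 genes of urothelium, papilla and medulla also overlapped between the groups, with 0, 2 and 1 called, all higher. Fxyd2 and Aqp1 made up most of the last sum, at levels of 145.1 and 116.5 in BBMP animal 2. The called gene of that list, Upk1b, read 0.240 in that animal and hardly entered the sum. The overlap of that sum therefore bears mainly on Fxyd2 and Aqp1. Of 5 tested adrenal cortex markers, 1 was called higher, Cyp21a1. Their sum was 1.26 to 1.51 in BBMP animals and 0.804 to 1.11 in controls, without overlap, while the defining adrenal genes Cyp11b1, Star and Nr5a1 failed the background criterion on all 6 arrays. The part of these other cells in the results above was not tested.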

How the data were processed

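Total RNA of 6 renal cortex samples was hybridised to one-colour Agilent arrays. Per the file headers, Feature Extraction 10.7.1.1 read each array (10.7 per the submitters' processing notes), giving the deposited intensity values, background-subtracted processed signals and raw medians, with flags scored 0 or 1 in the deposited files. The authors' deposited table holds a ratio per probe, equal to the processed signal over the 75th percentile of the array. Each of its columns matched the scanner file of another animal of the same group, so replicate numbers are uncertain and group membership is not, and its column medians were 0.106 to 0.113.

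Scanner files were used. Of 61657 non-control probes, 84 ERCC spike-in and 10 outlier-flagged probes were left out. Log2 processed signals minus the array's 75th percentile were fitted by lmFit and eBayes of limma 3.58.1 (R 4.3.3; two-sided tests, group the only term). A probe entered if every array of the BBMP or of the control group had it well above background, which left 42657. Genes were named through RefSeq accessions and a GRCr8 table (27460 probes), and the brightest probe stood for a gene. The array design is based on rn4. Correlations and subunit balance were tested in scipy 1.17.1, and plots drawn with matplotlib 3.10.9. The fit was tested on simulated data.

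The genes, lists and alternatives were chosen with earlier results of these data known, and slide row 1 alone was added after seeing the data. Named pathway genes were up to 4 called genes per list with the largest difference, 1 of which is not reported here. Others named (Tsc22d3, Per1, Fkbp5, Klf9, Slc12a3, Calb1, H6pd, Ell, Mlst8, Wnk1) were chosen after their values were seen. So were the markers Pcbd1, Tfcp2l1, Atp6v1g3, Foxi1, Slc26a4, Upk1b, Fxyd2 and Aqp1. The other markers named are Aqp2, the called ones of 4 marker lists and the undetected adrenal genes. Normexp used the median signal and an offset of 50. With 3 arrays per group, their number limits the precision.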

Additional observations from a re-analysis of the deposited data

How the results depend on the processing

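Where a call changed below, the cause was not tested unless the construction shows it. Of the log2 differences, only that of Nr3c2 reversed with a call, to 0.37 (adjusted p 0.0463) with the mean of all probes, since its dim probes point up. After normexp these probes turned, uncalled in both settings, to -0.21 and -0.06, and the cause was not tested. Hsd11b2 kept its direction but missed the threshold at -0.39 with normexp (adjusted p 0.0509), -0.48 without the filter on dim probes (0.0566) and -0.37 with slide row as a block (0.256) or in slide row 1 alone (0.291), and leaving out 1 array gave -0.57 to -0.39. Elf5 missed it at -0.65 in both slide row fits, and leaving out 1 array gave -0.59 to -0.46. The estimates of these 2 fits are the same by construction, since the other row holds only controls. The dimmer Scnn1a probe missed it at 0.50 with quantile normalization, 0.44 with cyclic loess, 0.53 with median scaling, 0.14 with normexp, 0.60 without the filter, and 0.34 in both slide row fits, and gave 0.45 to 0.74 with 1 array left out, past the threshold only without control 3. With slide row as a block the uncalled differences of Avpr2, Scnn1b and Kcnj1 turned to -0.09, -0.08 and -0.05. The subunit balance with the brighter probe was -0.29 as reported, -0.03 with normexp and -0.44 with the mean of all probes, and lay between -0.41 and -0.20 with 1 array left out. Of the 9 genes, 1 was called higher with the mean of all probes and 1 lower with normexp or without the filter, and leaving out 1 array left 0 to 1 lower and 0 higher. Of the 87 pathway genes, 3 called higher became 7 with normexp, 5 with the filter on all arrays, 6 with trend and robust, and 0 to 4 with 1 array left out, while 11 called lower became 6 with the mean of all probes and 0 to 9 with 1 array left out. Over all genes, 3232 higher and 2427 lower became 2102 and 3749 with median scaling, 5109 lower with normexp, 2102 higher without the filter, and 3 to 2431 higher and 0 to 1571 lower with 1 array left out, the fewest (3 and 0) without BBMP replicate 2. Higher calls were 57.1% of all calls, and 48.9% with quantile normalization, 46.6% with cyclic loess, 35.9% with median scaling and 36.4% with normexp, which moved the median of all genes by -0.11. Limma with slide row as a block called 0 genes in either direction, members and pathway genes included, as did slide row 1 alone, where 7288 and 7178 genes had an unadjusted p under 0.05, against 11564 as reported (1 and 1 of the 9 genes, against 3; 18 and 15 pathway genes, against 25). Same-numbered animals did not deviate together (r of -0.12, -0.08 and -0.07 across genes). No pairing by number was therefore seen, which does not show that there was none. The fit with the replicate block called 0 genes in either direction, with 9943 at an unadjusted p under 0.05 (2 of the 9 genes, 21 pathway genes), and gave -0.48 for Hsd11b2 (adjusted p 0.0752), -0.52 for Elf5 (0.0922) and 0.60 for the dimmer Scnn1a probe (0.107).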
